A study of Mus musculus with 56 samples.

Results

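Expression of 36 cell proliferation genes was examined in mouse visceral adipose tissue (VAT), the fat depot around the abdominal organs. The genes were taken from a fixed list of symbols, and all 36 were found among the 25939 genes of the deposited table and passed the filter on low values. By their textbook roles, 15 act at the start of DNA synthesis or during it (S phase) and 21 act in G2 and mitosis. All 56 libraries were used. Each came from 1 female C57BL/6J mouse of 9 weeks on normal chow and a 12 h light and 12 h dark cycle. Mice had food during the day only (daytime-restricted feeding, DRF, 28 mice) or during the night only (nighttime-restricted feeding, NRF, 28 mice, the reference) for 7 days. At each of 7 time points, every 4 h from zeitgeber time 0 (ZT0, lights on) to ZT24, 4 mice per regimen were taken, and no allele, drug or transgene was involved. The question was whether proliferation transcripts differ between the regimens in level and in 24-h rhythm, and whether S-phase genes differ from mitosis genes in this.

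A dividing cell copies its DNA in S phase and separates the copies in mitosis. S-phase genes such as those of the MCM helicase are switched on by E2F transcription factors near the end of G1, whereas many mitosis genes are switched on later, through CHR elements and CCAAT boxes in their promoters. In adipose tissue most mature adipocytes do not divide, and dividing cells are mainly found among progenitor, endothelial and immune cells.

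The promoters of the members are shown first, because the classes are known for different motifs there and most members of each class rose under DRF. RefSeq promoter sequences of the GRCm38.p6 build were matched by symbol for 29 of the 36 members. In the 250 bases before the annotated start, E2F motifs (TTTCCCGC, TTTGGCGC, TTTCGCGC or TTTGCCGC, either strand) were found in 4 of 13 promoters of S-phase members (30.8%), in 1 of 18 promoters of mitosis members (5.56%) and in 1.86% of all 32851 promoters in the table. CHR motifs (TTTGAA or TTCGAA, either strand) were found in 9 of the 18 mitosis promoters (50.0%), in 2 of the 13 S-phase promoters (15.4%) and in 17.1% of all promoters. CCAAT on either strand was found in 88.9% of mitosis promoters, 69.2% of S-phase promoters and 33.8% of all promoters. Mcm7 and Prc1 have 2 promoters each in the table, and those of Prc1 overlap in position. The 160 bases before the start are given for 2 MCM genes, which carry E2F motifs, for Ccne1, which carries none of the motifs searched, and for 3 mitosis genes with CHR motifs. Capitals mark E2F, CHR and CCAAT matches, and neighbouring E2F matches overlap in Mcm5 and in Mcm6. These are matches of letters and not measured binding sites.
Mcm5: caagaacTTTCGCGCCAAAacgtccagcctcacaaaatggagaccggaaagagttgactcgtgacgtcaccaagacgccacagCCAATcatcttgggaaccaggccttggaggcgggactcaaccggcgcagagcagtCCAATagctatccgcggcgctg
Mcm6: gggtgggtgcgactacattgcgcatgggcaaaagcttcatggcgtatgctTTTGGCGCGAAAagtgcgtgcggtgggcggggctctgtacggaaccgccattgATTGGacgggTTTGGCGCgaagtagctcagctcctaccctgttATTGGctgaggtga
Ccne1: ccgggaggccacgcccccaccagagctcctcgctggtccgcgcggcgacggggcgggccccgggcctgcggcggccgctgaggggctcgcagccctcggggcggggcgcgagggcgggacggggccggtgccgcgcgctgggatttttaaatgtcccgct
Cdk1: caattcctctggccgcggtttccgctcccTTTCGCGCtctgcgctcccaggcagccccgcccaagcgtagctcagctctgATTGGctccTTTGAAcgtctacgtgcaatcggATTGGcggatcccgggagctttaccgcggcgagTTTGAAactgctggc
Top2a: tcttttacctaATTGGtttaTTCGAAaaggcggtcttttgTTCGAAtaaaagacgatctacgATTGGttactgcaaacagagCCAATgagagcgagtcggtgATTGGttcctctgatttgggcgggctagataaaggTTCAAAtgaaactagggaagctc
Mki67: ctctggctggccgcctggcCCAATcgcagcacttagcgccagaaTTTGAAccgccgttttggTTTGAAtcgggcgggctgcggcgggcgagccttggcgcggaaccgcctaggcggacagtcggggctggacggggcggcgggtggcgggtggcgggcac
These windows lie at chr8:75109349-75109508 on the plus strand for Mcm5, chr1:128359706-128359865 on the minus strand for Mcm6 and chr7:38107491-38107650 on the minus strand for Ccne1. They lie at chr10:69352913-69353072 on the minus strand for Cdk1, chr11:99024190-99024349 on the minus strand for Top2a and chr7:135716380-135716539 on the minus strand for Mki67.

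Reads on genes were recovered from the deposited values and ranged from 30.9 to 40.9 M per library. Levels are given as CPM, recovered reads divided by the effective size of the library in M, and differences on the log2(CPM + 1) scale, on which low genes appear to change less than they do. The labelled tissue carried its defining markers: Adipoq had a median of 3041 CPM under NRF and 2588 CPM under DRF. A pair of DRF libraries stood apart from the rest in some markers of neighbouring tissue, ZT8 replicate 1 and ZT0 replicate 4. The summed level of 7 measured markers listed for uterus and oviduct epithelium was 505.8 CPM and 1279 CPM in this pair. It was 13.1 to 45.6 CPM under NRF and at most 71.6 CPM in the other DRF libraries. Wfdc2, Krt8 and Epcam reached 292, 249 and 245 CPM, whereas the oviductal glycoprotein Ovgp1 was at most 1.2 CPM in any library. Granulosa cell markers of the ovary (4 measured) summed to 35.3 CPM and 6.56 CPM in the pair. Elsewhere their sum was at most 4.19 CPM under NRF and 4.35 CPM under DRF. Of these markers only Foxl2 was raised strongly, to 29.4 CPM at most. Amh, Inha and Inhba were at most 0.532, 2.46 and 3.46 CPM in any library. The adipocyte marker sum was 7830.5 CPM and 12075 CPM in the pair, against medians of 19404 CPM under DRF and 25664 CPM under NRF. Other lists were high outside the pair as well. Uterine stroma and muscle markers summed to 693 CPM and 649 CPM in the pair, and to at most 691 CPM under NRF (median 236 CPM). Liver markers reached 1539 CPM in an NRF library (NRF median 24.5 CPM). Skeletal muscle markers reached 525 CPM under NRF and 402 CPM under DRF, where the pair had 30.3 CPM and 21.1 CPM. Values without the pair are given beside those results that it moved most, and the part of such other tissue in them was not tested.

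The members were low but measured in every library. Compared per length over all 56 libraries, Pcna, the sliding clamp of DNA polymerase, was the most abundant S-phase member at 19.5 CPM per kb. It was followed by the MCM helicase subunits Mcm7 (4.77 CPM per kb), Mcm4 (4.10 CPM per kb) and Mcm6 (3.35 CPM per kb). In the mitosis class, the order was Ube2c, the E2 enzyme of the anaphase-promoting complex (2.11 CPM per kb), cyclin B2 (Ccnb2, 2.04 CPM per kb), the anaphase activator Cdc20 (1.84 CPM per kb) and the proliferation antigen Mki67 (1.80 CPM per kb). Pcna ranged from 35.1 to 55.1 CPM under NRF (median 43.2 CPM, n = 28) and from 37.8 to 87.2 CPM under DRF (median 47.1 CPM, n = 28), where the highest value without the pair was 59.0 CPM. Mcm4 ranged from 10.4 to 17.97 CPM under NRF (median 14.1 CPM) and from 8.94 to 37.6 CPM under DRF (median 14.6 CPM). Ccnb2 ranged from 0.483 to 4.33 CPM under NRF (median 2.0 CPM) and from 1.04 to 15.3 CPM under DRF (median 3.61 CPM). Without the pair the highest DRF values were 21.3 CPM for Mcm4 and 8.47 CPM for Ccnb2. The regimens overlapped for these genes, with 4, 5 and 8 of 28 DRF libraries above all NRF libraries. Cdc20 ranged from 0.832 to 4.52 CPM under NRF (median 2.25 CPM) and from 1.12 to 21.5 CPM under DRF (median 3.83 CPM, highest 8.40 CPM without the pair), with 10 of 28 DRF libraries above all NRF libraries. The lowest member was the kinetochore gene Cenpf, at 0.221 CPM per kb. The fewest reads behind any value were 9, for the checkpoint kinase Bub1 in an NRF library.

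Proliferation transcripts were higher under DRF. Averaged over the day, 33 of the 36 members rose under DRF relative to NRF, where 11.4% of all 25938 genes tested rose (17.0% of the 15736 genes with a mean of at least 0.5 CPM), and no member fell, where 10.3% of all genes did. All 21 mitosis members rose, with differences of 0.47 to 1.05 on the log2 scale and a median of 0.72. Of the 15 S-phase members 12 rose, and the class had differences of 0.11 to 0.77 with a median of 0.33. Over all genes tested the median difference was -0.000360. The ratio of mean CPM, DRF over NRF, was 1.51 to 2.46 for mitosis members and 1.09 to 1.99 for S-phase members, so the ranges of the classes overlap. Without the pair, the ratios were 1.4 to 2.12 for mitosis members and 1.04 to 1.89 for S-phase members.

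On the log2(CPM + 1) scale, the largest differences belonged to Top2a, Mki67 and Prc1. By the ratio of mean CPM, which does not shrink low genes, Bub1 was first at 2.46, followed by Top2a (2.37), Ccnb1 (2.31) and Prc1 (2.29), and without the pair Bub1 (2.12) was followed by Prc1 (2.11). Top2a, the topoisomerase that untangles DNA before mitosis, ranged from 2.44 to 17.99 CPM under NRF (median 8.09 CPM, n = 28) and from 3.80 to 105 CPM under DRF (median 16.6 CPM, n = 28). Mki67 ranged from 3.95 to 20.4 CPM under NRF (median 11.1 CPM) and from 4.35 to 88.2 CPM under DRF (median 22.0 CPM). Prc1, which bundles microtubules of the spindle midzone, ranged from 1.33 to 6.76 CPM under NRF (median 2.92 CPM) and from 1.56 to 25.6 CPM under DRF (median 6.47 CPM). Without the pair, the highest DRF values were 38.6 CPM for Top2a, 52.3 CPM for Mki67 and 16.2 CPM for Prc1. The regimens overlapped for all 3 genes: 12, 17 and 14 of the 28 DRF libraries lay above the highest NRF library for Top2a, Mki67 and Prc1. The differences were 1.05 ± 0.18 (SE), 0.98 ± 0.18 and 0.93 ± 0.15 on the log2 scale, with adjusted p = 1.55e-05, 5.84e-05 and 5.65e-06 in limma.

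**Figure D1:**
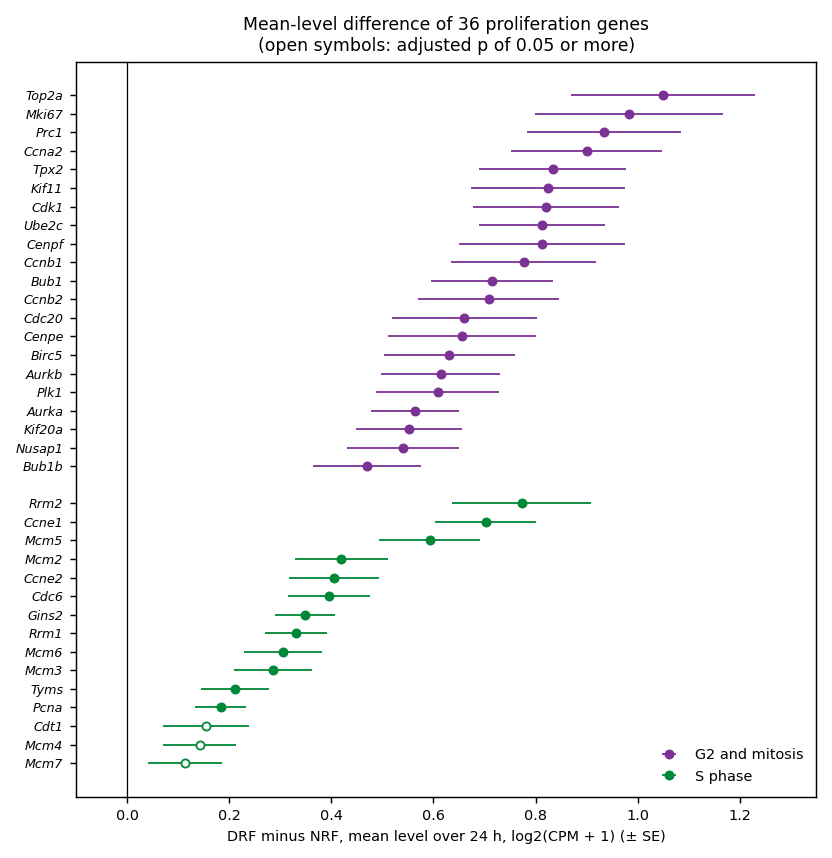
Difference in mean level over the day between DRF and NRF for each of the 36 genes, on the log2(CPM + 1) scale, with the standard error as bars and 28 libraries per regimen. All 36 genes lie to the right of 0, mitosis genes between 0.47 and 1.05 and S-phase genes between 0.11 and 0.77, with Mcm4, Mcm7 and Cdt1 (open) short of the threshold.

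Among mitosis members, cyclins and their kinase rose together. Ccna2, the cyclin of S phase and G2, had a mean of 3.52 CPM ± 1.37 (SD, n = 28) under NRF and 7.71 CPM ± 4.91 under DRF, a difference of 0.90 ± 0.15 (SE) on the log2 scale (adjusted p = 7.38e-06, limma). Without the pair its DRF mean was 7.03 CPM ± 2.75 (SD, n = 26). The mitotic cyclins Ccnb1 and Ccnb2 differed by 0.78 ± 0.14 and 0.71 ± 0.14, and their partner kinase Cdk1 by 0.82 ± 0.14. The mitotic kinases Aurka, Aurkb and Plk1 differed by 0.56, 0.61 and 0.61, and Birc5 (survivin), which acts with Aurkb, by 0.63. The spindle genes Tpx2, Kif11, Kif20a and Nusap1 differed by 0.83, 0.82, 0.55 and 0.54. The kinetochore genes Cenpe and Cenpf differed by 0.66 and 0.81, and the checkpoint kinases Bub1 and Bub1b by 0.72 and 0.47. For the exit from mitosis, Ube2c ranged from 1.18 to 6.41 CPM under NRF (median 3.38 CPM) and from 2.87 to 24.9 CPM under DRF (median 6.79 CPM, highest 13.3 CPM without the pair), with 17 of 28 DRF libraries above all NRF libraries. Cdc20 differed by 0.66 ± 0.14 on the log2 scale.

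S-phase members differed among themselves. Rrm2, the regulated subunit of ribonucleotide reductase, rose by 0.77 ± 0.14 (SE) on the log2 scale, from 3.40 CPM ± 1.2 (SD, n = 28) under NRF to 6.74 CPM ± 3.62 under DRF (adjusted p = 2.34e-05, limma), whereas its partner Rrm1 rose by 0.33 ± 0.06. Cyclin E1 (Ccne1), which drives entry into S phase, rose by 0.70 ± 0.10 and cyclin E2 (Ccne2) by 0.41 ± 0.09. The helicase subunits Mcm5, Mcm2, Mcm6 and Mcm3 rose by 0.59, 0.42, 0.31 and 0.29. Mcm4 and Mcm7 had differences of 0.14 ± 0.07 and 0.11 ± 0.07 (adjusted p = 0.163 and 0.299 in limma). The licensing factor Cdc6 rose by 0.40 ± 0.08, while its partner Cdt1 had a difference of 0.15 ± 0.08 (adjusted p = 0.204, limma). Gins2, a subunit of the GINS complex of the replication fork, rose by 0.35 ± 0.06, and 17 of its 28 DRF libraries lay above all NRF libraries. Thymidylate synthase (Tyms) and Pcna showed the smallest rises that passed, 0.21 ± 0.07 and 0.18 ± 0.05. Scaling by total recovered reads ended both of these calls, and leaving out replicate 1 or replicate 2 ended that of Tyms.

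Without the pair of libraries that stood apart, the same number of members rose (21 mitosis and 12 S-phase members), and the median differences were 0.64 for mitosis and 0.28 for S-phase members. Some markers of the tissue's cells differed between the regimens as well, and the sums over each list, which were not tested, overlapped when all time points were pooled. Of 8 adipocyte markers, 2 fell under DRF (Cfd by 1.37 and Adipoq by 0.31 on the log2 scale) and 1 rose (Lep). Cfd had a median of 12396 CPM under NRF and 4691 CPM under DRF, a gap larger than that between the medians of the sum, and Plin1, Cidec, Retn, Pnpla2, Lipe and Lep had higher medians under DRF. The sum spanned 17920.1 to 34099.5 CPM under NRF and 7830.5 to 24376 CPM under DRF. The mean adipocyte sum was lower under DRF at each time point from ZT0 to ZT20, by most at ZT12 (29367 CPM ± 3468 (SD, n = 4) under NRF and 15749.9 CPM ± 1447 under DRF) and ZT8 (28801 CPM ± 4320 and 16506 CPM ± 5883), and at ZT24 it was 22084 CPM ± 3348 and 21945 CPM ± 2701. Its part in the members' differences was not tested. Of 8 adipose progenitor markers 5 fell, and their sum spanned 1684 to 3329 CPM under NRF (median 2392 CPM) and 1466 to 2424 CPM under DRF (median 1818 CPM). Of 6 macrophage markers 3 fell, with a sum of 783 to 1963 CPM under NRF (median 1018 CPM) and 659 to 1265 CPM under DRF (median 876 CPM). Of 6 endothelial markers 2 fell, with a sum of 678 to 1037 CPM under NRF (median 806 CPM) and 480.0 to 999 CPM under DRF (median 831 CPM). Of 6 erythroid markers 3 rose (Hbb-bs, Hba-a1 and Alas2), and their sum spanned 149.6 to 639.5 CPM under NRF (median 241 CPM) and 179.9 to 744 CPM under DRF (median 395 CPM). B-cell and T-cell marker sums were at most 31.6 and 9.09 CPM in any library, and of their 6 markers each, 0 B-cell and 2 T-cell markers were lower under DRF. The T-cell sum of 9.09 CPM was that of DRF ZT8 replicate 1, and without the pair the highest under DRF was 4.91 CPM. That library also had the lowest DRF sums of adipocyte, macrophage and erythroid markers, and DRF ZT0 replicate 4 the lowest of endothelial markers. Of 6 mesothelial markers 3 fell (Upk3b, Lrrn4 and Wt1). The sum of the 6 spanned 247 to 671 CPM under NRF (median 481 CPM) and 206 to 614 CPM under DRF (median 370 CPM). Of 5 plasma cell markers 2 fell (Jchain and Xbp1), and of 6 germinal centre B-cell markers 1 fell (S1pr2). The part of cell composition in the rise of the members was not tested, and in bulk tissue more cells of a type and more RNA per cell cannot be told apart.

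Time courses were compared between the classes. On the log2 scale under DRF, 20 of 21 mitosis members and 12 of 15 S-phase members had their highest group mean at ZT12, at the end of the light phase. Linear CPM means are weighted by the highest library, and by them 16 mitosis and 10 S-phase members peaked at ZT8, where 1 library stood apart. Under NRF on the log2 scale, 14 of the mitosis members peaked at ZT8 and 17 were lowest at ZT16, and the S-phase members were spread over ZT4 (6 members), ZT12 (4 members) and other times. Averaged over the class in each library, mitosis members reached 2.63 to 3.54 on the log2 scale in the 4 DRF libraries at ZT12, against 1.78 to 2.01 in the 4 NRF libraries. At ZT8 the DRF libraries spread from 1.32 (replicate 3) to 4.53 (replicate 1). Replicate 1 at ZT8 was 1 of the pair that stood apart, and it held the highest value of all 56 libraries for 21 of 21 mitosis members and for 14 of 15 S-phase members. Replicate 4 at ZT0, the other library of the pair, was at 2.28 for the mitosis class, the lowest of its group.

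**Figure D2:**
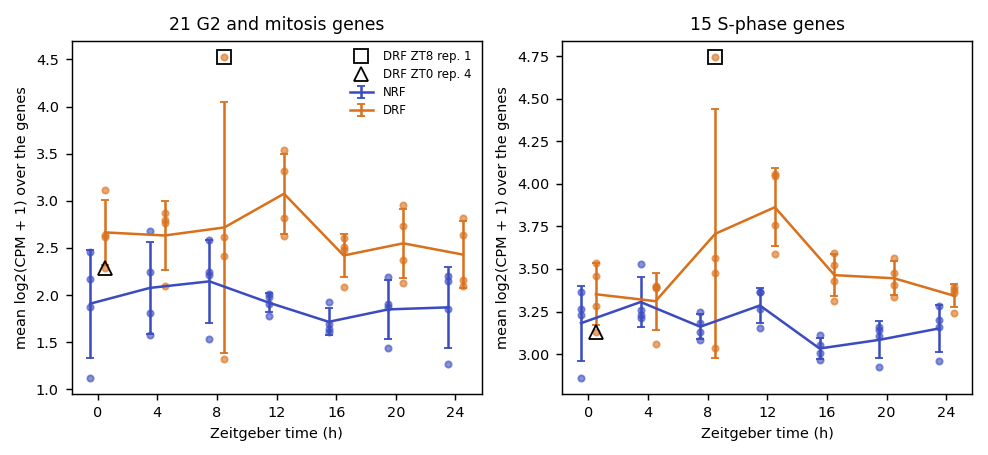
Mean log2(CPM + 1) over the 21 mitosis genes (left) and the 15 S-phase genes (right) in each library against zeitgeber time in h. Points are libraries, lines join group means with the SD (n = 4), and a black square and triangle mark the pair of DRF libraries that stood apart. DRF libraries at ZT12 lie above all NRF libraries of that time in both classes, and at ZT8 the DRF mean rests on replicate 1.

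At single time points (limma, 14-group fit), the median difference of the mitosis members was 1.09 at ZT12 and 0.53 to 0.75 at the other times, and whether it differed between times was tested only through the 24-h cosine below. At ZT12, 17 of 21 mitosis members and 8 of 15 S-phase members were higher under DRF, where 8.76% of all genes were, and none was lower (7.38% of all genes). The S-phase members had a median difference of 0.56 at ZT12. For 20 of 21 mitosis members and 9 of 15 S-phase members, all 4 DRF libraries lay above all 4 NRF libraries at ZT12, which held for 11.8% of all genes. Mki67 was at 49.7, 52.3, 25.3 and 25.3 CPM in the DRF mice and at 10.5, 8.64, 10.9 and 11.2 CPM in the NRF mice. Prc1 was at 13.1, 16.2, 7.43 and 8.92 CPM under DRF and at 2.89, 2.56, 4.24 and 2.27 CPM under NRF. The groups did not overlap for either gene, and the differences were 1.72 ± 0.50 (SE) for Mki67 and 1.60 ± 0.40 for Prc1 on the log2 scale (adjusted p = 0.0123 and 0.00385, limma). The number of calls at ZT12 depended on which replicate was left out. Without replicate 2, 0 mitosis members and 1 S-phase member passed, and without replicate 4, 6 and 5 did. Without replicate 1, 14 and 5 passed, and without replicate 3, 17 and 8. Over all genes, 4186 were called at ZT12 in either direction with all libraries. Without replicate 1, 2, 3 or 4, 2716, 2133, 3573 and 3083 were. The median difference of the mitosis class was 0.93 without replicate 2 and 1.2 without replicate 4. Without the pair, 19 mitosis and 11 S-phase members passed at ZT12, and 5044 of all genes did.

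Earlier in the light phase, at ZT8, the classes had like median differences, 0.55 for S-phase and 0.53 for mitosis members, and 14 of 15 and 21 of 21 estimates were above 0. More S-phase than mitosis members passed, and whether the classes differ was not tested. Of the S-phase members 8 were higher under DRF at ZT8, where 8.99% of all genes were higher and 7.47% lower: Mcm2, Mcm3, Mcm5, Mcm6, Pcna, Rrm1, Tyms and Cdc6. Of the mitosis members Bub1 passed, and voom called 0. Mcm5 was at 38.5, 10.7, 6.18 and 12.8 CPM in the DRF mice and at 4.94, 6.03, 5.58 and 4.52 CPM in the NRF mice at ZT8. All 4 DRF values of Mcm5 lay above the NRF values, as they did for Cdc6 and for no other member at ZT8 (5.94% of all genes), and the DRF value of 38.5 CPM came from replicate 1. Without the pair, Mcm5, Mcm6, Mcm2, Cdc6 and Pcna still passed as higher, at 0.75, 0.42, 0.57, 0.57 and 0.27 on the log2 scale, and Mcm7 was lower by 0.49. Without the pair the mitosis class had a median difference of -0.00392 at ZT8, 8 of 21 members had an estimate above 0, and 0 passed. Without replicate 1, 2 S-phase members were higher and 1 was lower at ZT8. Over all genes, calls at ZT8 in either direction numbered 4270 with all libraries, 5013 without the pair and 3770 without replicate 1.

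**Figure D3:**
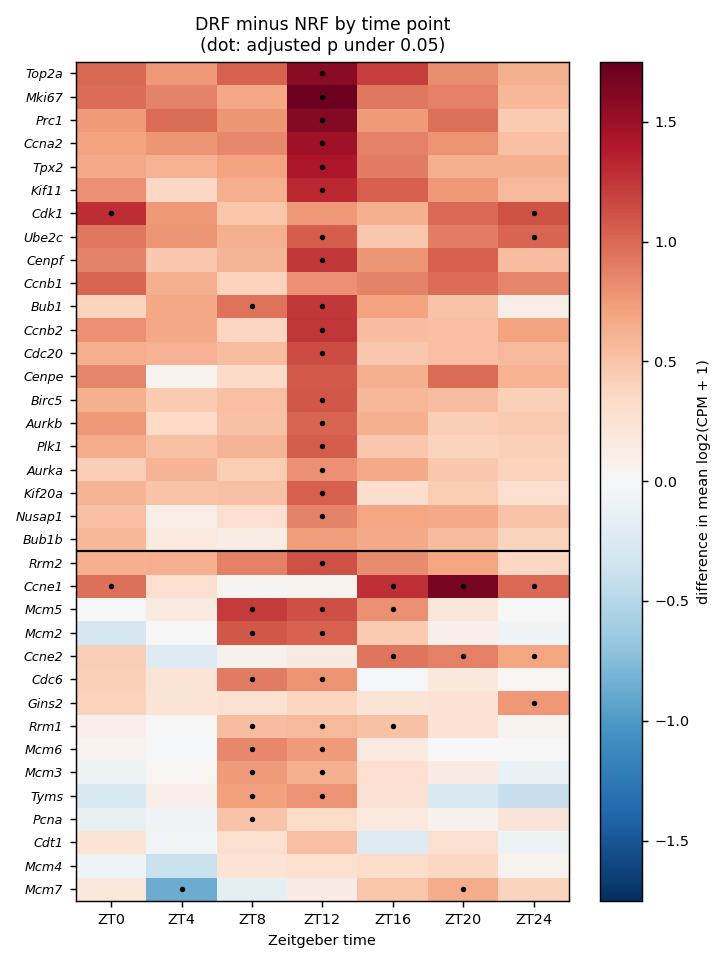
Difference in mean log2(CPM + 1) between DRF and NRF at each zeitgeber time (columns) for the 36 genes (rows), mitosis genes above the black line and S-phase genes below it. Red is higher under DRF, blue lower, and dots mark adjusted p under 0.05 in limma (n = 4 per group). Dots gather at ZT12 for mitosis genes, at ZT8 and ZT12 for Mcm2, Mcm3, Mcm5 and Mcm6, and at ZT16 to ZT24 for Ccne1 and Ccne2.

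At the other time points fewer members passed. Of the 15 S-phase members, 4 were higher under DRF at ZT16 (Ccne1, Ccne2, Mcm5 and Rrm1) and 3 at ZT20 (Ccne1, Ccne2 and Mcm7), with differences of 0.80 ± 0.26 (SE) for Mcm5 and 0.51 ± 0.17 for Rrm1 on the log2 scale at ZT16. Without the pair, 6 S-phase members were higher at ZT16 and 3 at ZT20, and 2 were lower at ZT4, where Mcm7 alone was lower with all libraries. Over the alternatives run, 1 to 6 S-phase members were higher at ZT16 and 1 to 3 at ZT20. At ZT16, 2 were higher with scaling by total reads, without the ZT24 libraries, or without replicate 2 or 3, and 1 without replicate 4. At ZT20, 1 was higher without replicate 2. Over all genes, 1435 passed at ZT16 without replicate 4 and 1623 at ZT20 without replicate 2, against 2587 and 3403 with all libraries. All 21 mitosis members had a higher mean under DRF at each of the 7 time points. At ZT8 this rested on the library that stood apart, since without the pair 8 of 21 and without replicate 1 16 of 21 had a higher mean, and on the deposited scale 20 of 21 did. At ZT4, 19 of 21 had a higher mean without replicate 1 or 2 or with scaling by total reads, and at ZT24 20 of 21 did without replicate 2. At ZT4, ZT16 and ZT20, 0 of the mitosis members passed in limma, where 10.4%, 5.01% and 6.71% of all genes were higher. At ZT16 and ZT20, 4.97% and 6.41% of all genes were lower. At these times 4, 9 and 7 mitosis members had an unadjusted p under 0.05, and voom called 0 at each. Without the pair, 4, 7 and 7 passed there. Calls over all genes, in either direction, rose from 5047, 2587 and 3403 to 6141, 3559 and 4238. At ZT0, Cdk1 and Ccne1 passed as higher, where 5.41% of all genes were higher and 5.06% lower, and without the pair 6 mitosis and 3 S-phase members did. At ZT24, Cdk1, Ube2c, Ccne1, Ccne2 and Gins2 passed as higher, where 6.09% were higher and 5.24% lower, and without the pair 3 mitosis and 4 S-phase members were higher and 1 S-phase member lower. Over all genes, calls without the pair were 2904 at ZT0 and 3895 at ZT24, against 2716 and 2939 with all libraries. The mitosis calls at lights on depended on the settings. At ZT0, Cdk1 did not pass without replicate 2, 3 or 4. At ZT24 its adjusted p was 0.0499 in limma, 0 mitosis members passed by voom, with scaling by total reads, or without replicate 2 or 4, and Ccne1 did not pass without replicate 2.

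The cyclin E genes kept another timing. Ccne1 was higher under DRF at ZT16, ZT20, ZT24 and ZT0. At ZT20 it was at 7.70, 8.20, 10.5 and 8.28 CPM in the DRF mice and at 2.05, 2.20, 1.97 and 2.0 CPM in the NRF mice. These groups did not overlap, and the difference of 1.65 ± 0.20 (SE) on the log2 scale was the largest of any S-phase member at any time (adjusted p = 1.54e-07, limma). At ZT12 Ccne1 was at 7.82, 7.55, 8.27 and 5.88 CPM under DRF and at 5.65, 8.51, 7.03 and 6.95 CPM under NRF, and the groups overlapped. Ccne2 was higher under DRF at ZT16, ZT20 and ZT24, by 0.93 ± 0.24, 0.88 ± 0.24 and 0.69 ± 0.24 on the log2 scale. Mcm7 differed in both directions. At ZT4 it was at 13.5, 15.3, 13.9 and 13.2 CPM under DRF and at 24.6, 25.9, 27.0 and 27.9 CPM under NRF, lower by 0.87 ± 0.17 with no overlap, where 9.04% of all genes were lower. At ZT20 it was at 25.0, 25.9, 24.9 and 21.5 CPM under DRF and at 15.6, 13.8, 14.9 and 16.5 CPM under NRF, higher by 0.64 ± 0.17.

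Rhythms of 24 h were tested within each regimen by JTK_CYCLE and Lomb-Scargle combined. Under NRF, 3 S-phase members (Mcm7, Tyms and Ccne1) and 1 mitosis member (Bub1b) were rhythmic, where 24.5% of all 25939 genes were. Under DRF, 7 S-phase members (Mcm2, Mcm3, Mcm4, Mcm5, Mcm6, Tyms and Ccne2) and 0 mitosis members were rhythmic, where 12.9% of all genes were. For the mitosis class under DRF, 0 members had an unadjusted p under 0.05 and the limma cosine test called 0. The limma cosine test called 7 S-phase and 3 mitosis members under NRF, where 37.3% of all genes were called, and 7 S-phase members under DRF, where 22.3% were. These calls also depended on the mice: without replicate 2 no member was rhythmic under DRF by the combined test, without replicate 4 only 1 was, and without the pair 9 were. Over all genes, 3339 were rhythmic under DRF with all libraries, 1399 without replicate 2, 1790 without replicate 4 and 4414 without the pair. Under NRF, 2 members were called without replicate 2, 3 or 4. Over all genes, 3619, 4458 and 3952 were called then, against 6345 with all libraries.

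A difference in rhythm between the regimens was called for S-phase members, and for mitosis members it was not detectable at this spread. By limma, with the 24-h cosine allowed to differ by regimen, 10 of 15 S-phase members differed, where 36% of all genes did: Mcm2, Mcm3, Mcm5, Mcm6, Mcm7, Rrm1, Tyms, Ccne1, Ccne2 and Cdc6. Of the mitosis members 0 passed, 1 had an unadjusted p under 0.05 and voom called 0. The smallest adjusted p among mitosis members was 0.0753, for Bub1, in limma. Without replicate 1, 4 mitosis members passed, without replicate 3 or without the pair 1 did, and the S-phase count was 9 to 10 when a replicate was left out. Over all genes, 9338 differed with all libraries, 8266 without replicate 1, 7747 without replicate 3 and 10525 without the pair. Mitosis members spread more between mice of 1 group, with a median SD of 0.44 under NRF and 0.60 under DRF on the log2 scale, against 0.20 and 0.34 for S-phase members. Without the pair, the DRF values were 0.43 for mitosis and 0.22 for S-phase members, close to those under NRF. The median amplitude of the fitted DRF cosine was 0.23 for mitosis and 0.34 for S-phase members, and 0.13 and 0.28 without the pair. Whether the classes differ in rhythm, beyond this precision, was not tested.

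Peak times here are those of the fitted cosine. Tyms, which makes thymidylate for DNA synthesis, peaked at 23.3 h ± 1.1 (SE) under NRF and at 9.9 h ± 0.7 under DRF, with amplitudes of 0.25 and 0.37 on the log2 scale (interaction adjusted p = 6.71e-07, limma). Its group means at ZT0 and ZT12 were 7.83 CPM ± 1.11 (SD, n = 4) and 5.65 CPM ± 0.397 under NRF, and 6.28 CPM ± 1.09 and 10.5 CPM ± 0.762 under DRF. Its mean was thus higher at lights on than at lights off under NRF, and the reverse under DRF. Ccne1 peaked at 7.9 h ± 0.7 under NRF and at 19.6 h ± 1.1 under DRF, a shift of 11.8 h ± 1.3 (adjusted p = 2.09e-05, limma). Its group means were highest at ZT12 under NRF (7.04 CPM) and at ZT20 under DRF (8.67 CPM), 8 h apart, so the fitted peak under NRF lay earlier than the highest mean. Mcm7 peaked at 6.6 h ± 0.6 under NRF with an amplitude of 0.42, and its fitted DRF amplitude was 0.21 (adjusted p = 2.43e-05, limma). Without the pair, the DRF amplitude of Mcm7 was 0.31, with the peak at 17.9 h. For Mcm6 the fitted amplitude was 0.04 ± 0.08 under NRF and 0.44 ± 0.07 under DRF, with the DRF peak at 9.9 h ± 0.7. Mcm5, Mcm3 and Mcm2 had DRF peaks at 10.6 h ± 0.69, 9.8 h ± 0.69 and 10.4 h ± 0.72, and DRF amplitudes of 0.57, 0.43 and 0.50. Without the pair, the DRF peaks of Mcm6, Mcm5, Mcm3 and Mcm2 were at 10.7, 11.3, 10.3 and 11.3 h, with amplitudes of 0.35, 0.46, 0.31 and 0.39, and all 4 still differed in rhythm between the regimens. Ccne2 peaked at 10.1 h ± 1.4 under NRF and at 17.0 h ± 0.7 under DRF. Of the 3 mitosis members with the smallest p, Bub1 had amplitudes of 0.09 ± 0.11 under NRF and 0.36 ± 0.11 under DRF, Nusap1 of 0.29 ± 0.12 and 0.16 ± 0.10, and Bub1b of 0.30 ± 0.11 and 0.13 ± 0.10. Without the pair, their DRF amplitudes were 0.24, 0.14 and 0.11.

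**Figure D4:**
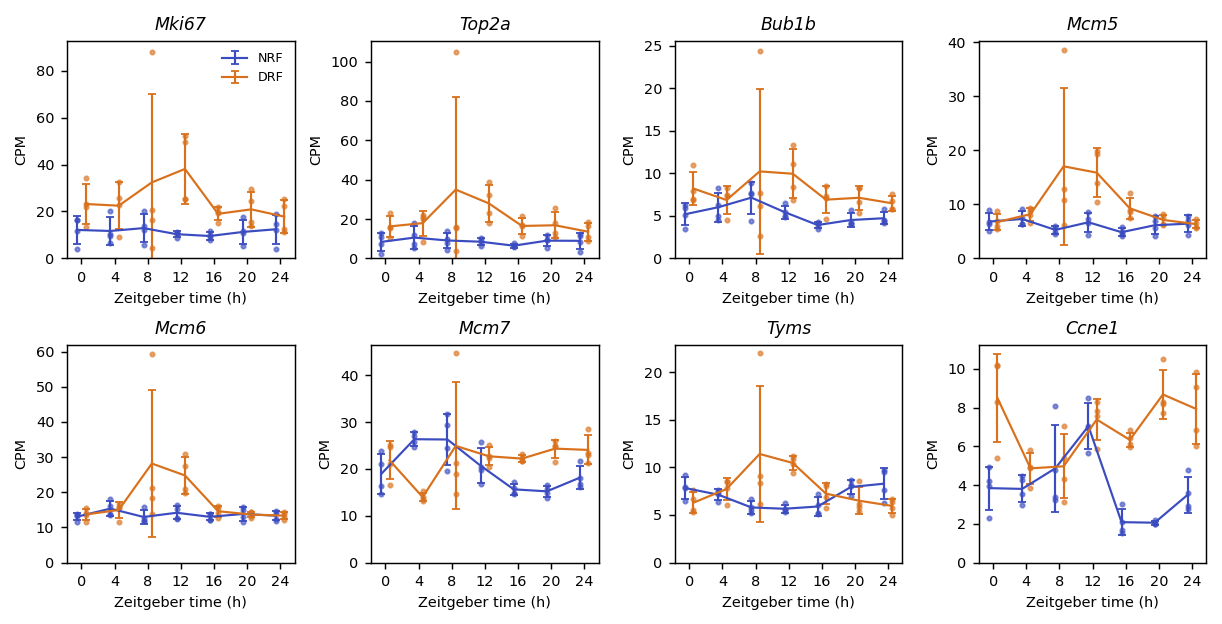
Levels in CPM against zeitgeber time in h for 8 of the genes, with points for libraries and lines for group means ± SD (n = 4) under NRF (blue) and DRF (orange). Mki67 and Top2a lie higher under DRF for most of the day, Mcm5, Mcm6 and Tyms are high at ZT8 and ZT12 under DRF, and Ccne1 has its highest mean at ZT12 under NRF and at ZT20 under DRF. The highest DRF point at ZT8 is replicate 1 in all 8 panels.

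If a rhythm followed food alone, the DRF curve would be that of NRF moved by 12 h. With the DRF times moved by 12 h, 5 S-phase members differed from NRF (Mcm3, Mcm5, Mcm6, Ccne2 and Gins2), where 14.9% of all genes did. The smallest adjusted p was 0.00253, for Mcm3 in limma. Gins2 was not among the members that differed on the clock time. The test also passes where the amplitude alone differs, and the fitted amplitudes of Mcm6 differed between the regimens. A pass therefore does not by itself show a timing other than that of food. Of the mitosis members 0 passed, 1 had an unadjusted p under 0.05, and voom called 0. Cdc20 had the smallest adjusted p among them (0.0624, limma). It passed in 3 of 14 settings, and Bub1b in 1. Tyms, Mcm7, Ccne1, Mcm2, Rrm1 and Cdc6, which differed on the clock time, did not pass here (adjusted p = 0.454, 0.256, 0.714, 0.0812, 0.858 and 0.143, limma). A p above the threshold does not show that their curves were the same. Without replicate 2 only 1 member passed, and without replicate 4 only 2 did. Over all genes, 3872 passed with all libraries, 1423 without replicate 2 and 2623 without replicate 4.

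Further cell cycle genes from lists that hold none of the members were tested in the same fits. Of 32 measured genes of mitosis, 29 rose under DRF and 1 fell, where 11.4% of all genes rose and 10.3% fell. Their median difference was 0.61 on the log2 scale. The largest rises were those of Spc25, a kinetochore subunit, at 0.83 ± 0.11 (SE), the kinase Pbk at 0.78 ± 0.15 and Pimreg at 0.74 ± 0.12. The one that fell, Pttg1 (securin), had 26.1 CPM ± 3.79 (SD, n = 28) under NRF and 24.1 CPM ± 3.90 under DRF, a difference of -0.15 ± 0.05. Of 33 genes of DNA replication and repair, 22 rose and none fell, against the same shares, with a median of 0.23. Uhrf1, which maintains DNA methylation at the fork, rose by 0.77 ± 0.13, the repair gene Brca1 by 0.69 ± 0.11 and the histone chaperone Asf1b by 0.65 ± 0.09. Their rhythms differed between the regimens for 23 of the 33 replication genes and for 5 of the 32 mitosis genes, where 36% of all genes differed. The spread under DRF was wide for some of them, with Pbk at 3.20 CPM ± 3.47 (SD, n = 28) and Uhrf1 at 7.62 CPM ± 7.28. Values for the further lists include the pair of DRF libraries, and those without it are not given.

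Of 14 activators of the cycle, 7 rose and 1 fell, where 11.4% of all genes rose and 10.3% fell. Foxm1, which switches on mitosis genes, rose by 0.77 ± 0.12 (SE), Mybl2, its partner, by 0.52 ± 0.09 and E2f1 by 0.51 ± 0.06 on the log2 scale. Myc fell by 0.23 from 14.4 CPM ± 3.97 (SD, n = 28) under NRF to 12.1 CPM ± 4.53 under DRF (adjusted p = 0.0362, limma). Of 22 repressors and inhibitors, 8 rose and 2 fell, against the same shares, so the number that fell in either list was near that over all genes. The cyclin-dependent kinase inhibitor Cdkn1a (p21), which stops the cycle, rose by 1.42 ± 0.13, from 31.1 CPM ± 20.7 to 71.2 CPM ± 48.0 (adjusted p = 1.46e-11, limma). E2f8 and E2f7, repressors that are themselves E2F targets, rose by 0.53 ± 0.12 and 0.41 ± 0.09. The inhibitors Cdkn1c (p57) and Cdkn1b (p27) fell by 0.42 and 0.19.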

How the data were processed

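VAT RNA of 56 mice was sequenced as polyA libraries. Per the submitters' processing notes, HISAT2 2.0.5, featureCounts 1.5.0-p3 and mm10 were used. The authors deposited 1 score per gene and library, named TPM. By its values the score is log2(CPM + 1) divided by exon length, rescaled per library. Whole reads were recovered with GENCODE M21 exon lengths (GRCm38). Values worth up to 10000 reads numbered 1262086, and 99.9964% of them came out whole to within 0.02 (4.0% would by chance). Lengths came from the values for 909 genes, including the members Kif20a and Kif11. Scd1 was unresolved and left out of the limma tests.

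The design assumed linear TPM or a recoverable logarithm, and the latter applied, so log2(CPM + 1) was used. Mean level (adjusted for each regimen's 24-h cosine and sine), rhythm difference and time points were tested in limma 3.58.1 (R 4.3.3) with an intensity trend. Rhythms within a regimen were tested on the deposited scores by JTK_CYCLE and Lomb-Scargle at 24 h, combined by Fisher's method (Python 3.11.15, numpy 2.4.6, scipy 1.17.1). Genes with a mean score of at least 0.1 entered (this removed none), and Benjamini-Hochberg adjusted p under 0.05 over all genes was the threshold. On simulated data of 3000 genes, limma found 200 of 200 mean changes (4 others called) and 199 of 200 rhythm differences (11 others). How often limma finds differences as small as those of most members was not tested. The combined rhythm test found 88 of 200 rhythms with an amplitude of 1.2 SD (1 other), so a rhythm that was not called may still exist.

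All 36 members are named. Values by library or group are given for the 3 largest mean differences and, except for Mcm6, the 4 highest per length in each class. They are also given for the 3 S-phase members with the smallest p of rhythm difference. For Mcm6 and the 3 such mitosis members, ratios or fitted values are given. Other values were chosen after they were seen, as were the time points shown. Of the further lists, up to 3 genes per direction are named by size. The members and lists were chosen with earlier results of these data known. Replicates are separate mice. Depth was 30.9 to 40.9 M recovered reads per library. Strand was not used in the library kit, so overlapping genes cannot be told apart. Alternatives covered the scaling, pseudocount, filter, deposited scale, voom, the replicate block, the ZT24 libraries, the pair and each replicate number. Marker lists of cell types and neighbouring tissues were summed, and some of them are given.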

Additional observations from a re-analysis of the deposited data

Results flagged for a closer look

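Within groups of 4 mice, 3 class means lay far from the others by Dixon's test at 95%, in 28 groups tested (14 per class), where chance gives about 1 in 20. At ZT4 under DRF, replicate 4 was low in both classes, at 3.06 for the S-phase mean and 2.09 for the mitosis mean on the log2 scale. At ZT4 under NRF, replicate 4 was high, at 3.53 for the S-phase mean. The rhythm of 10 S-phase members differed between the regimens by limma's interaction test.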

How the results depend on the processing

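The count of members that rose in mean level was 31 to 33 under all alternatives run, and that of members with a rhythm difference was 9 to 14, the 14 without replicate 1. No mean difference and no called time point difference changed sign. Rises lost in 4 cases were those of Pcna (0.14 with scaling by total reads) and Tyms (0.18 with that scaling, 0.13 and 0.21 without replicate 1 or 2). With the feeding-aligned test, 3 members passed without the ZT24 libraries, and 1 to 5 when a replicate was left out. Over all genes, 3872 passed that test, 3461 without the ZT24 libraries and 1423 to 3247 when a replicate was left out. Calls at time points numbered 49 over the 7 times, 82 without the pair of DRF libraries, and 15 to 50 when a replicate was left out. Over all genes, calls at ZT12 numbered 4186, 5044 without the pair and 2133 to 3573 when a replicate was left out. The median difference of mitosis members at ZT8 changed from 0.53 to -0.00392 without the pair. Under NRF, 4 members were rhythmic by the combined test, 10 by the limma cosine test, 2 without the ZT24 libraries and 2 to 4 when a replicate was left out. Under DRF 7 were rhythmic, and 0 to 6 when a replicate was left out. Over all genes, 3339 were rhythmic under DRF, and 1399 to 2130 when a replicate was left out. The causes were not tested. Replicate numbers did not pair the mice: 8 of 28 pairs of the same number and time correlated over 0.1, and 12 of 56 libraries correlated best with their own number. With the replicate block, 33 members rose, 11 differed in rhythm, 6 in the feeding-aligned test and 52 calls were made at time points, and the limma cosine test called 10 under NRF and 8 under DRF. The depth gave at least 9 reads for each member in each library.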
